A study of Mus musculus with 20 samples.

Results

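The genes examined were Aqp4, Kcnj10, Gja1 and Gjb6, which encode the main water, potassium and gap junction channels of astrocytes. Every probe set annotated to exactly 1 of these 4 symbols was taken, which gave 11 of the 45101 probe sets on the array: 6 for Gja1, 3 for Aqp4, and 1 each for Kcnj10 and Gjb6. No probe set was shared between a member and another gene. The data came from 20 Affymetrix arrays of motor cortex and sensory cortex from 10 female C57Bl6 mice, with both regions taken from each mouse. There were 6 mice with experimental autoimmune encephalomyelitis (EAE) and 4 healthy mice, so the groups were motor cortex of 6 EAE mice, motor cortex of 4 healthy mice, sensory cortex of 6 EAE mice and sensory cortex of 4 healthy mice. EAE is an autoimmune inflammation of the central nervous system, used as a model of multiple sclerosis. It was induced at 8 to 12 weeks of age with MOG35-55, a myelin peptide, given as 100 µg in the rear flanks and 50 µg at the tail base, with 400 ng of pertussis toxin on days 0 and 3. The age range given for the healthy mice is the same, 8 to 12 weeks. The healthy mice lived in the same cages, and the labels describe no peptide, toxin or mock injection for them, so disease and injection cannot be told apart. The labels give day 18 to 21 for the EAE mice and average clinical grades of 2.5 to 3.5. All mice were perfused before dissection, and they formed 2 cohorts of 3 EAE and 2 healthy mice each.

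Astrocytes line blood vessels with endfeet, where the water channel aquaporin-4 (Aqp4) and the inwardly rectifying potassium channel Kir4.1 (Kcnj10) are concentrated and held by the dystrophin-associated complex. Kir4.1 takes up potassium released by firing neurons. The connexins Cx43 (Gja1) and Cx30 (Gjb6) form the gap junctions that join astrocytes into a network through which potassium and small metabolites spread. Cx30 appears later in postnatal brain development than Cx43. Loss or relocation of these channels is a known feature of inflamed nervous tissue.

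The 2 connexin genes gave unlike results in EAE cortex, so the 250 bases before the gene start of each are shown for comparison, from RefSeq (GRCm38.p6). The Gjb6 sequence is chr14:57133612-57133861 on the minus strand and the Gja1 sequence is chr10:56377050-56377299 on the plus strand, each 5′ to 3′ on the strand of the gene. Capitals mark the match to a motif described next.
Gjb6: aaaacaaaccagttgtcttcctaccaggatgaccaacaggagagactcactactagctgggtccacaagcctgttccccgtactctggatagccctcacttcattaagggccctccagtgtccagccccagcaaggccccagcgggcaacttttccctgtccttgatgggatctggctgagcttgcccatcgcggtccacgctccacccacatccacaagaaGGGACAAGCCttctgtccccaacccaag
Gja1: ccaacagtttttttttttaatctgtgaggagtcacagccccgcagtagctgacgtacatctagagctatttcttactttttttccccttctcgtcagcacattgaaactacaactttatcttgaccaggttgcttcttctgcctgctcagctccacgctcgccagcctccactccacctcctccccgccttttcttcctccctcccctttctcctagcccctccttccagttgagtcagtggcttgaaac
Both strands were searched for short motifs. The glucocorticoid receptor half-site was read as AGAACA and stood in 16.1% of 32851 mouse promoter windows of the same length. The STAT site was read as TTCCNNGAA, held by 4.06% of the windows, and the NF-kB site as GGGA and CC parted by any 4 bases, held by 17.6%. The CCAAT box was held by 33.8%, the GC box, read as GGGCGG, by 32.7%, and the TATA box, read as TATAAA, by 12.4%. The single match in the 2 sequences was to this loose NF-kB pattern in Gjb6, on the strand of the gene, 28 to 19 bases before the start. The pattern leaves its 4 middle bases free, so the match does not establish a full NF-kB site. A match is a description of these letters and shows no binding.

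Values are RMA-normalized log2 signals, so a difference of 1 is a doubling of signal, and levels are compared between groups within a probe set only. The brightest probe set of each gene lay high in the range of the array. Of all probe sets on the array, 98.1% were dimmer than 1437992_x_at (Gja1), 93.2% than 1419601_at (Kcnj10), 92.4% than 1448397_at (Gjb6) and 86.5% than 1434449_at (Aqp4). Array medians were 8.22 to 8.32, and correlation within groups was 0.988 to 0.998. All 15 astrocyte marker genes were measured, with mean log2 signals over the list of 12.08 to 12.25 in motor EAE arrays, 12.18 to 12.25 in motor healthy arrays, 12.23 to 12.32 in sensory EAE arrays and 12.29 to 12.35 in sensory healthy arrays. Differences between EAE and healthy mice were tested with limma on 45037 probe sets, with cohort as a covariate and Benjamini-Hochberg adjustment over all of them. A probe set was called at an adjusted p under 0.05.

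Gjb6 was higher in EAE mice in both regions, and no other member was called. In motor cortex the Gjb6 signal of EAE mice 1 to 6 was 11.89, 12.15, 12.16, 12.02, 12.13 and 12.38, against 11.45, 11.56, 11.61 and 11.56 in healthy mice 1 to 4. The sensory cortex values were 12.01, 12.29, 12.37, 12.29, 12.19 and 12.53 in EAE mice, against 11.69, 11.58, 11.62 and 11.59 in healthy mice. Every EAE value lay above every healthy value within each region, and the spread among healthy mice was small. Of all probe sets, 4.13% in motor and 4.59% in sensory cortex had groups that did not overlap. The order of the group means was sensory EAE at 12.28 ± 0.18 (SD, n = 6), motor EAE at 12.12 ± 0.16 (SD, n = 6), sensory healthy at 11.62 ± 0.05 (SD, n = 4) and motor healthy at 11.54 ± 0.07 (SD, n = 4). The EAE groups overlapped each other, as did the healthy groups.

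Gjb6 rose by 0.58 ± 0.08 (log2, SE) in motor cortex of EAE mice, 1.495-fold with a 95% confidence interval of 1.32 to 1.69, at a limma adjusted p of 0.0128. The sensory rise was 0.66 ± 0.09, 1.58-fold with an interval of 1.38 to 1.81, at a limma adjusted p of 0.0200. Over the mean of both regions of each mouse it rose by 0.62 ± 0.08, 1.54-fold, at a limma adjusted p of 0.00558. Its unadjusted p ranked 43 among 45037 in motor cortex and 41 in sensory cortex. Gjb6 was the 1 member probe set of 11 called in each of these comparisons, where 0.722% of all probe sets were called in motor cortex, 0.577% in sensory cortex and 3.38% over both regions. The size held within each cohort, at 0.57 in cohort 1 and 0.59 in cohort 2 in motor cortex and 0.59 and 0.73 in sensory cortex. The call did not. The limma adjusted p of Gjb6 within cohorts 1 and 2 was 0.292 and 0.191 in motor cortex, 1.00 and 0.0785 in sensory cortex, and 0.463 and 0.05004 over both regions. Without the mice of the second processing day, all of them healthy, it was 0.145 over both regions. In sensory cortex it was above 0.05 without any 1 of EAE mice 2, 4 and 5 or of the 4 healthy mice, at 0.0514 to 0.119, and at 0.239 with the replicate number as a block, and in motor cortex without healthy mouse 1, at 0.0618. Bulk RNA cannot tell fewer or more cells of a type from less or more RNA per cell, here and in all that follows.

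**Figure D1:**
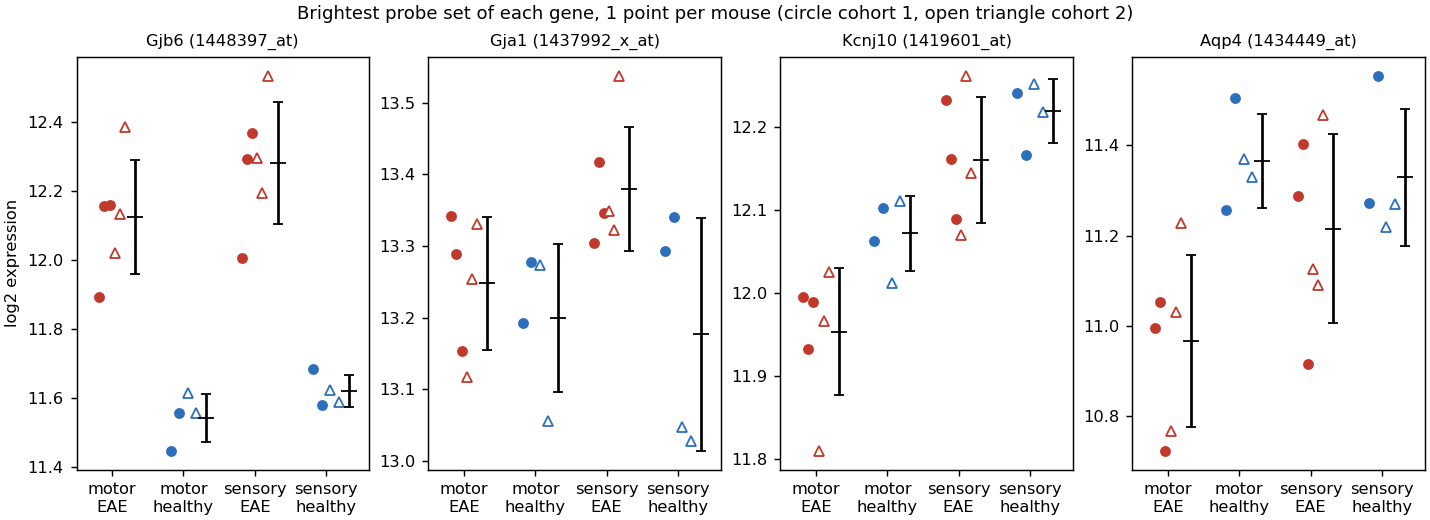
Log2 signal (vertical axis) of the brightest probe set of each gene in every array, with 1 point for each mouse (circles for cohort 1, open triangles for cohort 2), a tick for the group mean and error bars of 1 SD. The Gjb6 points of EAE mice sit above those of healthy mice in both regions, from 11.89 to 12.38 against 11.45 to 11.61 in motor cortex.

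Gja1, the more widely expressed astrocyte connexin gene, had no probe set called in either region or over both regions. Its brightest probe set, 1437992_x_at, gave 13.34, 13.29, 13.15, 13.12, 13.25 and 13.33 in motor cortex of EAE mice, against 13.19, 13.28, 13.27 and 13.06 in healthy mice. The sensory values were 13.30, 13.42, 13.35, 13.35, 13.32 and 13.54 in EAE mice, against 13.29, 13.34, 13.05 and 13.03 in healthy mice. The groups overlapped in both regions, with healthy mice 3 and 4 lowest in sensory cortex. The order of means was sensory EAE 13.38 ± 0.09, motor EAE 13.25 ± 0.09, motor healthy 13.20 ± 0.10 and sensory healthy 13.18 ± 0.16 (SD, n = 6 EAE and 4 healthy mice), and each neighbouring pair in this order overlapped in range.

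The EAE minus healthy difference of 1437992_x_at was 0.05 ± 0.07 (log2, SE) in motor cortex, with a 95% interval of -0.10 to 0.20 and a limma adjusted p of 0.835. In sensory cortex it was 0.20 ± 0.08, with an interval of 0.03 to 0.37 and a limma adjusted p of 0.247. The other 5 Gja1 probe sets differed by -0.08 to 0.11 in motor cortex. In sensory cortex 1415800_at differed by 0.22 ± 0.10, 1438945_x_at by 0.29 ± 0.11, 1438650_x_at by 0.21 ± 0.06 and 1438973_x_at by 0.22 ± 0.10, while 1415801_at differed by -0.13 ± 0.08. The groups of 1438650_x_at did not overlap in sensory cortex, with 12.13 to 12.24 in EAE mice and 11.84 to 12.09 in healthy mice, at a limma adjusted p of 0.134, and groups did not overlap for 4.59% of all probe sets there.

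The Gja1 probe sets share a target but did not all move alike. Over the 20 arrays, 5 of them correlated with one another at 0.697 to 0.959, whereas 1415801_at correlated with the other 5 at -0.31 to 0.01. These are descriptions over arrays that share mice and cohorts. The positive sensory differences of Gja1 were larger in cohort 2. For 1437992_x_at the difference was 0.04 in cohort 1 and 0.37 in cohort 2, and for the other 4 probe sets with a positive difference it was 0.03 to 0.11 in cohort 1 and 0.32 to 0.54 in cohort 2. A limma test of the difference between cohorts, chosen after these values were seen, gave 0.33 ± 0.12 for 1437992_x_at, unadjusted p 0.0239 and adjusted p 0.956. That test called 0 of 45037 probe sets in sensory cortex, with 2094 (4.65%) at an unadjusted p under 0.05.

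Kcnj10, which encodes Kir4.1, was not called and differed little between the conditions. In motor cortex its probe set gave 12.00, 11.93, 11.99, 11.81, 11.97 and 12.03 in EAE mice, against 12.06, 12.10, 12.01 and 12.11 in healthy mice. Sensory values were 12.23, 12.16, 12.09, 12.07, 12.26 and 12.14 in EAE mice, against 12.24, 12.17, 12.25 and 12.22 in healthy mice. The groups overlapped in each region, and the EAE mice spread more widely than the healthy mice. The order of means was sensory healthy 12.22 ± 0.04, sensory EAE 12.16 ± 0.08, motor healthy 12.07 ± 0.05 and motor EAE 11.95 ± 0.08 (SD, n = 6 EAE and 4 healthy mice), with overlap between all neighbours.

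The Kcnj10 difference was -0.12 ± 0.06 (log2, SE) in motor cortex, with a 95% interval of -0.25 to 0.01 and a limma adjusted p of 0.469. In sensory cortex it was -0.06 ± 0.06, with an interval of -0.19 to 0.07 and a limma adjusted p of 0.653. Averaged over both regions of a mouse, Kcnj10 was 11.94 to 12.11 in EAE mice and 12.13 to 12.16 in healthy mice, so the groups did not overlap, as for 7.40% of all probe sets. The difference over both regions was -0.09 ± 0.05, at a limma adjusted p of 0.298. Within cohorts the motor difference was -0.11 and -0.13 and the sensory difference -0.04 and -0.08.

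Aqp4, the endfoot water channel gene, had lower mean signals in EAE mice for all 3 probe sets in both regions, and none was called. The brightest, 1434449_at, gave 10.995, 11.05, 10.72, 10.77, 11.03 and 11.23 in motor cortex of EAE mice, against 11.26, 11.51, 11.37 and 11.33 in healthy mice. Sensory cortex gave 11.29, 11.40, 10.92, 11.12, 11.09 and 11.47 in EAE mice, against 11.27, 11.55, 11.22 and 11.27 in healthy mice. The groups did not overlap in motor cortex, as for 4.13% of all probe sets, and overlapped widely in sensory cortex. The order of means was motor healthy 11.37 ± 0.10, sensory healthy 11.33 ± 0.15, sensory EAE 11.22 ± 0.21 and motor EAE 10.97 ± 0.19 (SD, n = 6 EAE and 4 healthy mice), with overlap between all neighbours in this order.

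In motor cortex the difference of 1434449_at was -0.40 ± 0.10 (log2, SE), with a 95% interval of -0.61 to -0.19, an unadjusted limma p of 0.00153 and an adjusted p of 0.101. With the number shared by an EAE and a healthy mouse as a replicate block, the motor difference was -0.48 ± 0.08 and passed, at a limma adjusted p of 0.0278. That number joins different animals, and the block takes the place of the cohort covariate. EAE mice 5 and 6 have no healthy mouse of their number, so they do not inform that difference. With cohort as covariate, the sensory difference of 1434449_at was -0.11 ± 0.11, with an interval of -0.37 to 0.14 and a limma adjusted p of 0.671. The probe set 1425382_a_at differed by -0.45 ± 0.17 in motor cortex and by -0.52 ± 0.27 in sensory cortex, with limma adjusted p of 0.301 and 0.405. Its EAE mice covered 9.30 to 10.05 in motor and 9.22 to 10.67 in sensory cortex, against 9.76 to 10.71 and 10.16 to 10.94 in healthy mice. The dimmest, 1447745_at, differed by -0.33 ± 0.12 and -0.29 ± 0.08, with limma adjusted p of 0.278 and 0.131. Over both regions the 3 probe sets differed by -0.26 ± 0.10, -0.49 ± 0.19 and -0.31 ± 0.08, with limma adjusted p of 0.183, 0.180 and 0.0682.

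The Aqp4 probe sets did not keep the same size in the 2 cohorts. For 1434449_at the difference in cohorts 1 and 2 was -0.46 and -0.34 in motor cortex and -0.21 and -0.02 in sensory cortex. For 1425382_a_at it was -0.06 and -0.84 in motor cortex and 0.00 and -1.04 in sensory cortex. The limma test of the cohort difference, chosen after these values were seen, gave -0.78 ± 0.26 in motor cortex for 1425382_a_at, unadjusted p 0.0124 and adjusted p 0.612. It called 0 of 45037 probe sets in motor cortex, with 2970 (6.59%) at an unadjusted p under 0.05. Over the 20 arrays the 3 Aqp4 probe sets correlated at 0.255 to 0.610 with one another.

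**Figure D2:**
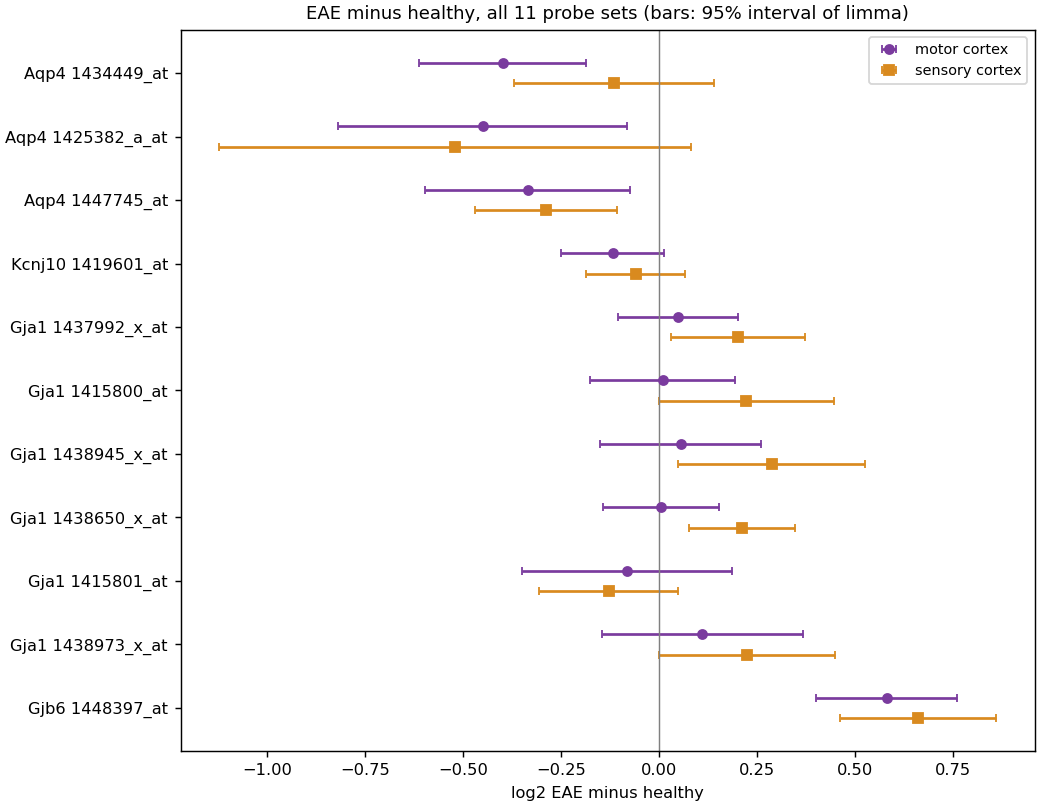
EAE minus healthy difference (log2, horizontal axis) of all 11 probe sets in motor and sensory cortex, with points for the limma estimate and lines for its 95% confidence interval. The Gjb6 intervals lie furthest to the right, at 0.40 to 0.76 in motor and 0.46 to 0.86 in sensory cortex, and the Aqp4 estimates lie left of 0.

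At an unadjusted limma p under 0.05, the 11 probe sets held 1 higher and 3 lower in EAE motor cortex, where 4.27% of all probe sets were higher and 7.80% lower. In sensory cortex they held 4 higher and 1 lower, beside 4.68% and 10.5% of all probe sets. All 3 motor probe sets on the lower side belonged to Aqp4, and 3 of the 4 sensory ones on the higher side to Gja1, so they are few genes rather than separate ones.

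**Figure D3:**
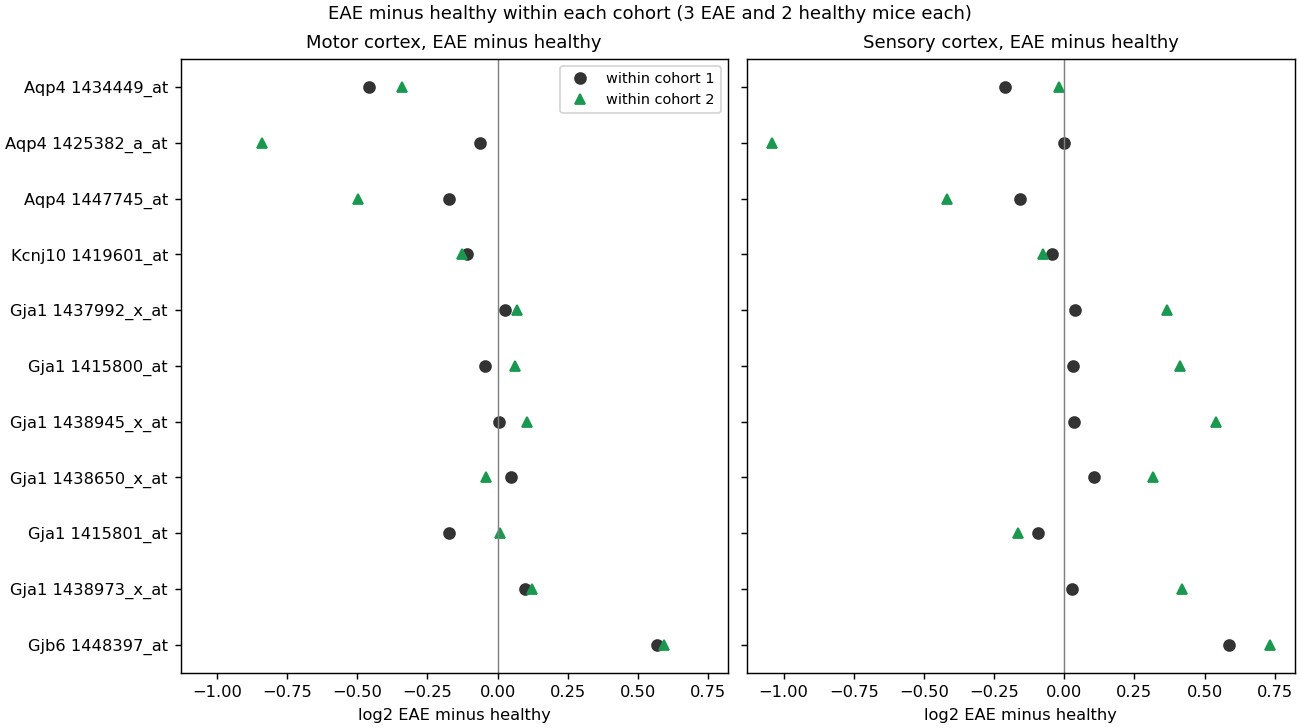
EAE minus healthy difference (log2, horizontal axis) of each probe set (rows) within cohort 1 (circles) and cohort 2 (triangles), each with 3 EAE and 2 healthy mice, in motor and sensory cortex. Gjb6 sits at 0.57 to 0.73 in all 4 cases, whereas the Aqp4 probe set 1425382_a_at is near 0 in cohort 1 and at -0.84 and -1.04 in cohort 2.

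The changes of pairs of members were set against each other within each mouse, using the brightest probe set of each gene. An exact two-sided permutation test over all 210 splits of the 10 mice was run for 6 pairs in each of 2 regions, with Benjamini-Hochberg adjustment over the 12 tests. The signal of Gjb6 minus that of Gja1 shifted by 0.53 (log2) in EAE motor cortex, a 1.45-fold change of the ratio, and by 0.46, or 1.37-fold, in sensory cortex. Gjb6 shifted against Kcnj10 by 0.70 and 0.72 and against Aqp4 by 0.98 and 0.77. These 6 shifts all had an exact permutation p of 0.00476, the smallest that the design allows, and an adjusted p of 0.00816, with no overlap between EAE and healthy mice. Gja1 shifted against Aqp4 by 0.45 in motor cortex, exact permutation p 0.00476 and adjusted p 0.00816, and by 0.32 in sensory cortex, exact permutation p 0.0190 and adjusted p 0.0229. Kcnj10 against Aqp4 shifted by 0.28 in motor cortex, exact permutation p 0.0190 and adjusted p 0.0229, and by 0.05 in sensory cortex, exact permutation p 0.705. Gja1 against Kcnj10 shifted by 0.17 and 0.26, with adjusted exact permutation p of 0.0229 and 0.0364. These splits did not keep cohorts apart, and the sensory EAE difference of Gja1 1437992_x_at was 0.33 larger in cohort 2 than in cohort 1. Gja1 1415801_at, which was not used for the pairs, differed by -0.13 in sensory cortex. In all 11 of 12 tests passed 0.05, and 7 to 11 did when 1 mouse was left out, 7 of them without healthy mouse 4. No share over other gene pairs of the array is given, so this count cannot be judged against a background. Gjb6, which is in 6 of the 12 tests, was already called by itself in both regions. The pairs share genes and mice and the genes were chosen with results known, so the tests show unequal change within these arrays and are not independent of one another.

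Both regions of a mouse were compared to see where the channels were higher. In EAE mice all 11 probe sets had a lower mean in motor than in sensory cortex, and 2 of them were called, where 3.28% of all probe sets were called. The 11 probe sets stand for 4 genes, with 6 of the probe sets for Gja1. The median difference was 0.01 (log2) over all probe sets and -0.15 over the 15 astrocyte marker genes, so a lower motor signal was not particular to the channels. Aqp4 1434449_at was lower in motor cortex in 6 of 6 EAE mice, by 0.06 to 0.36, with a mean of -0.25 ± 0.05 (log2, SE) and a limma adjusted p of 0.0191. Kcnj10 was lower in 6 of 6, by 0.10 to 0.30, with a mean of -0.21 ± 0.05 and a limma adjusted p of 0.0359. Gjb6 was lower in 6 of 6, by 0.06 to 0.27, with a mean of -0.16 ± 0.05 and a limma adjusted p of 0.138. The Gja1 probe set 1437992_x_at was lower in 5 of 6, with a mean of -0.13 ± 0.06 and a limma adjusted p of 0.322. Of the Gja1 probe sets, 1415801_at, which did not follow the others over the arrays, was lower in 6 of 6, by 0.18 to 0.29, with a mean of -0.25 ± 0.08 and a limma adjusted p of 0.144. Every EAE mouse lay on the same side of 0 for 8.61% of all probe sets.

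In healthy mice 0 of the 11 probe sets were called by limma between motor and sensory cortex, with 2 at an unadjusted p under 0.05, where 1.77% of all probe sets were called and 12.1% had an unadjusted p under 0.05. Kcnj10 was lower in motor cortex in 4 of 4 healthy mice, with a mean of -0.15 ± 0.06 and a limma adjusted p of 0.311. Gja1 1415801_at was lower in 4 of 4, by 0.05 to 0.79, with a mean of -0.29 ± 0.10, an unadjusted limma p of 0.0106 and an adjusted p of 0.202. Gjb6 was lower in 4 of 4, with a mean of -0.08 ± 0.06. Aqp4 1434449_at was lower in 2 of 4, with a mean of 0.04 ± 0.06. The other Aqp4 probe sets differed from it. In healthy mice 1425382_a_at was lower in 4 of 4, with a mean of -0.38, and 1447745_at in 2 of 4, with a mean of -0.08. In EAE mice 1425382_a_at was lower in 4 of 6, with a mean of -0.31, and 1447745_at in 5 of 6, with a mean of -0.13. Each mouse lay on the same side of 0 for 25.7% of all probe sets among the 4 healthy mice. The calls in EAE mice were sensitive to single mice. The limma adjusted p of Aqp4 1434449_at was 0.0780, 0.0750 and 0.0615 without EAE mice 2, 4 and 6 and 0.0644 without the mice of the second processing day, and that of Kcnj10 was 0.0532 to 0.135 without any 1 of EAE mice 1, 2, 4 and 5 or of the 4 healthy mice.

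Whether the EAE difference itself was unlike in the 2 regions was tested on the motor minus sensory value of each mouse. The limma test called 0 of 45037 probe sets, with 991 (2.20%) at an unadjusted p under 0.05. For Aqp4 1434449_at the motor minus sensory value was -0.36 to -0.06 in EAE mice and -0.05 to 0.15 in healthy mice, with no overlap, as for 0.455% of all probe sets. Its EAE difference was 0.28 ± 0.08 lower in motor cortex, with an unadjusted limma p of 0.00402, rank 43, and an adjusted p of 1.00. The other Aqp4 probe sets did not share this. Their motor minus sensory EAE difference was 0.07 ± 0.24 for 1425382_a_at and -0.05 ± 0.13 for 1447745_at. For Gjb6 the 2 EAE differences were -0.08 ± 0.08 apart, with a 95% interval of -0.25 to 0.09. No difference between the regions was therefore shown for any of the 4 genes once all probe sets were counted.

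**Figure D4:**
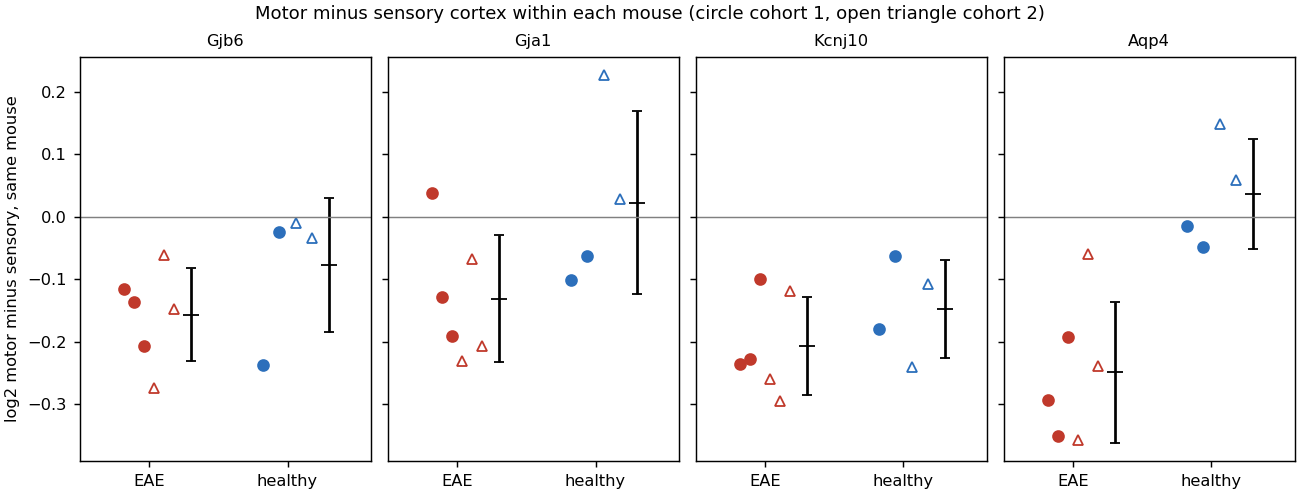
Motor minus sensory difference in log2 signal (vertical axis) within each mouse for the brightest probe set of each gene, with 1 point for each of 6 EAE and 4 healthy mice, a tick for the mean and error bars of 1 SD. Aqp4 and Kcnj10 lie below 0 in 6 of 6 EAE mice, while Aqp4 lies on both sides of 0 in healthy mice.

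The average clinical grade was 2.5, 3, 2.75, 3, 3.5 and 3.5 for mice 1 to 6. Among 8 relations between grade and signal, that of Gjb6 in motor cortex had the highest Pearson r, 0.73, with Spearman rho 0.47 and exact permutation p of 0.106 and 0.344 (n = 6). After adjustment over the 8 relations every exact permutation p was at least 0.522 for r and 0.919 for rho. For Gjb6 in motor cortex, r without the 2 mice farthest from the median grade was -0.05 to 0.75, since 3 mice tied for that place. The cohorts hold 3 EAE mice each, too few for a value within cohorts, and both mice of grade 3.5 were in cohort 2.

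Among the 18193 genes on the array, the 5 whose signal followed each member most closely were found by Pearson correlation over the 20 arrays, given here with the correlation of deviations from the 4 group means. For Gjb6 they were Selenop (0.956 and 0.728), the selenium carrier, Lrg1 (0.947 and 0.553), a secreted leucine-rich glycoprotein, Sparc (0.943 and 0.653), a matrix-binding glycoprotein, Xdh (0.936 and 0.607), xanthine dehydrogenase, and Sult1a1 (0.930 and 0.508), a phenol sulfotransferase. In EAE mice Lrg1 rose by 1.41 and 1.51 (log2) in motor and sensory cortex, Sult1a1 by 1.42 and 1.53, Xdh by 1.00 and 0.99, and Sparc by 0.46 and 0.60, all at a limma adjusted p under 0.05. Selenop, the closest gene, differed by 0.22 and 0.27, with limma adjusted p of 0.123 and 0.0475, so it was not called in motor cortex. These genes were picked for following Gjb6 over arrays where Gjb6 itself separated EAE from healthy mice. Their rises therefore follow in part from that choice and are not separate evidence. For Aqp4 the closest were Elovl2, a fatty acid elongase (0.892 and 0.877), Ktn1 (0.866 and 0.859), Ptprb (0.848 and 0.840), Wnt9a (0.843 and 0.810) and Myo6 (0.835 and 0.667). For Gja1 they were Ddx5, an RNA helicase (0.881 and 0.893), Serinc3 (0.853 and 0.839), Dennd5b (0.847 and 0.783), Gad1, a GABA-synthesizing enzyme (0.846 and 0.787), and Fubp3 (0.836 and 0.729). For Kcnj10 they were Ppfia4 (0.904 and 0.601), Brinp3 (0.891 and 0.574), Mxra7 (0.888 and 0.579), Cdh6 (0.882 and 0.474) and Col11a1 (0.880 and 0.614). Among the members, Gja1 and Gjb6 correlated at 0.608 over the arrays and 0.344 in deviations. Aqp4 and Gja1 correlated at 0.273 over the arrays and at 0.675 in deviations, and Aqp4 and Gjb6 at -0.363 and 0.271. All of these are descriptions over arrays that share mice, regions and cohorts.

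The other genes of the same systems were read from their brightest probe sets. Of the 18193 genes read in this way, 1.14% were called in motor and 0.786% in sensory cortex, 4.52% over both regions, and 4.58% in EAE and 2.36% in healthy mice between regions. At an unadjusted p under 0.05, 5.02% were higher and 9.44% lower in EAE motor cortex, and 6.25% higher and 10.8% lower in EAE sensory cortex, and the counts of each list are to be read beside these shares. Of 13 measured genes of the endfoot anchoring complex, 0 were called by limma in either region, with 3 lower and 0 higher at an unadjusted p under 0.05 in each. Their median difference was -0.12 in motor and -0.07 in sensory cortex, beside 0.00 over all probe sets in both. Mlc1, a membrane protein of astrocyte endfeet, differed by -0.22 ± 0.09 and -0.17 ± 0.05, and Dmd, dystrophin, by -0.14 ± 0.06 and -0.19 ± 0.06. Of 9 other aquaporin genes 0 were called by limma, with 1 lower at an unadjusted p under 0.05 in each region. That gene was Aqp11, an intracellular aquaporin, at -0.24 ± 0.10 in motor and -0.28 ± 0.06 in sensory cortex, with limma adjusted p of 0.333 and 0.0743.

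Of 12 measured genes of potassium and ion clearance, 0 were called by limma for EAE, with 1 higher and 3 lower at an unadjusted p under 0.05 in motor cortex and 1 lower in sensory cortex. Slc4a4, the sodium bicarbonate cotransporter of astrocytes, differed by -0.31 ± 0.08 and -0.18 ± 0.06, with limma adjusted p of 0.102 and 0.229. Kcnj16, which encodes Kir5.1, a partner subunit of Kir4.1, differed by 0.01 ± 0.08 and 0.02 ± 0.06. Between the regions, 4 of these 12 genes were lower in motor than in sensory cortex of EAE mice at a limma adjusted p under 0.05. They were the two-pore potassium channel gene Kcnk2 at -0.39 ± 0.05, Slc4a4 at -0.29 ± 0.05, Kcnj9 at -0.28 ± 0.07 and Kcnj3 at -0.22 ± 0.05, of which Kcnj9 and Kcnj3 encode G protein-gated potassium channels. Which cell types carried these 4 differences was not tested, so they are not a measure of potassium clearance by astrocytes. In healthy mice Kcnk2 alone passed, at -0.43 ± 0.06.

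Of 10 other gap junction genes, 0 were called by limma within a region, with 1 lower at an unadjusted p under 0.05 in each. That gene was Gjb1, which encodes Cx32 of oligodendrocytes, at -0.42 ± 0.09 in motor and -0.47 ± 0.15 in sensory cortex, with limma adjusted p of 0.0540 and 0.184. Over both regions Gjb1 fell by 0.44, at a limma adjusted p of 0.0439. Gjb2, which encodes Cx26, differed by -0.22 ± 0.14 and -0.09 ± 0.08. Gjb6 was the one connexin gene measured here that was called higher.

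**Figure D5:**
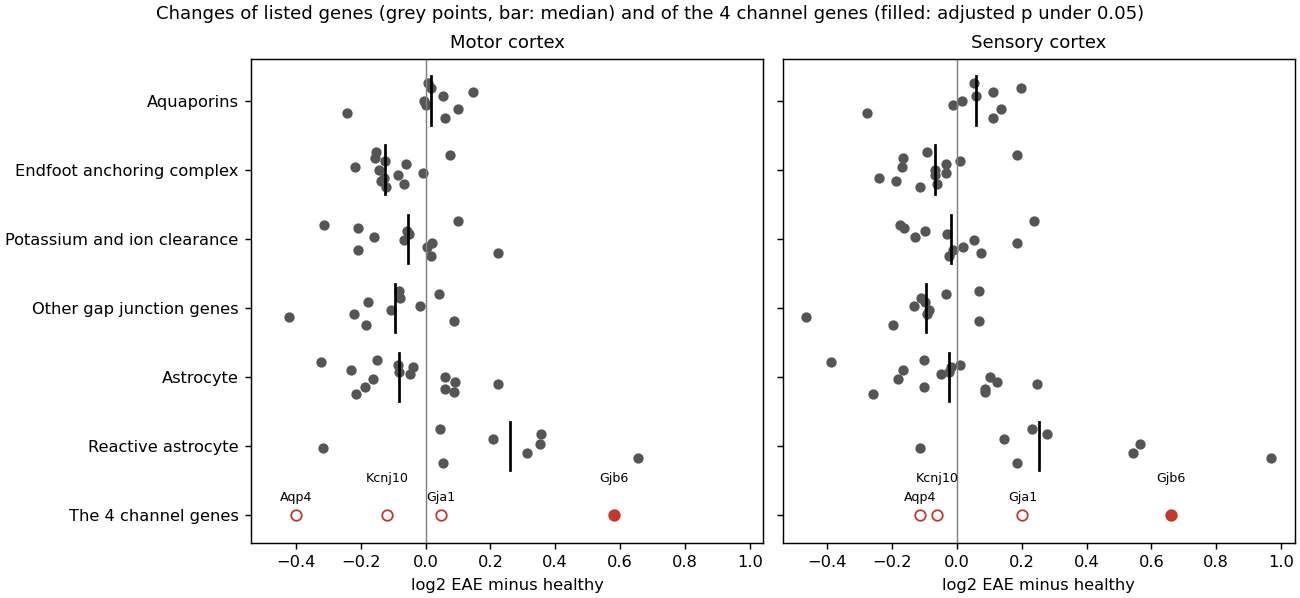
EAE minus healthy difference (log2, horizontal axis) of each gene in the lists of related channels, anchoring proteins and astrocyte markers (grey points, with a bar at the list median) and of the 4 channel genes (red, filled where called), in motor and sensory cortex. The anchoring, potassium and other gap junction lists centre just left of 0, at -0.12, -0.05 and -0.09 in motor cortex, and Gjb6 lies at 0.58.

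Markers of cell types moved with the condition in several lists. Of 15 astrocyte genes 0 were called by limma in either region, with 1 higher and 4 lower at an unadjusted p under 0.05 in each, and their median difference was -0.08 in motor and -0.02 in sensory cortex. Over both regions Fgfr3, a growth factor receptor, rose by 0.23, while Acsbg1, an acyl-CoA synthetase, fell by 0.24 and Slc7a10, an amino acid transporter, fell by 0.36, with limma adjusted p of 0.0283, 0.0204 and 0.0391. Of 8 reactive astrocyte genes 0 were called by limma in a region, with 4 higher at an unadjusted p under 0.05 in each and 1 lower in motor cortex. The lower gene was S1pr3, a sphingosine 1-phosphate receptor gene, at -0.32 ± 0.08 in motor cortex with a limma adjusted p of 0.0879. Gfap, the astrocyte filament gene, differed by 0.65 ± 0.23 in motor and 0.97 ± 0.24 in sensory cortex, with limma adjusted p of 0.263 and 0.0940. Over both regions Osmr rose by 0.43, Serpina3n by 0.46 and Timp1 by 0.32, with limma adjusted p of 0.0435, 0.0346 and 0.0309. The list's mean log2 signal was 8.77 to 9.09 in EAE and 8.65 to 8.78 in healthy motor cortex, and 8.81 to 9.55 in EAE and 8.76 to 8.80 in healthy sensory cortex.

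The T cell and neutrophil list had a mean log2 signal of 7.71 to 7.94 in EAE and 7.15 to 7.24 in healthy motor cortex, and of 7.63 to 8.36 in EAE and 7.05 to 7.26 in healthy sensory cortex, and 3 of 7 genes (S100a8, S100a9 and Ngp) were called higher in motor cortex. In sensory cortex limma called 0 of them, with 5 higher at an unadjusted p under 0.05. S100a8, a neutrophil calcium-binding protein gene, rose by 1.89 ± 0.14 in motor cortex. The microglia list was lower, at 10.19 to 10.34 in EAE and 10.64 to 10.78 in healthy motor cortex and 10.01 to 10.50 in EAE and 10.54 to 10.82 in healthy sensory cortex, and P2ry12, a microglial nucleotide receptor, fell by 0.97 and 0.98 in the 2 regions. The endothelium list, whose cells the endfeet wrap, was 9.10 to 9.31 in EAE and 9.39 to 9.56 in healthy motor cortex, and 9.15 to 9.37 in EAE and 9.52 to 9.63 in healthy sensory cortex, with 2 of 6 genes called lower in each (Slco1c1 in both, Tek in motor and Tie1 in sensory cortex). Of 8 oligodendrocyte genes, 2 (Ugt8a and Mag) were called lower in motor cortex and 0 in sensory cortex by limma, where 5 had an unadjusted p under 0.05. The meninges and fibroblast list overlapped between conditions, at 9.57 to 10.14 in EAE and 9.81 to 10.03 in healthy motor cortex and 9.91 to 10.44 in EAE and 9.88 to 10.13 in healthy sensory cortex. In EAE mice 3 of its 8 genes (Igfbp2, Igf2 and Dcn) were called lower in motor than in sensory cortex, as were the 2 channel probe sets named above. Limma called 0 of the 15 astrocyte genes between regions in EAE mice, with 9 lower and 0 higher in motor cortex at an unadjusted p under 0.05 and a median difference of -0.15. In healthy mice it also called 0 of them, with 5 lower and 0 higher and a median of -0.08. Of the 18193 genes, 7.45% were lower and 9.07% higher in motor cortex at that p in EAE mice, and 5.18% lower and 7.78% higher in healthy mice. Limma called 0 genes in either region in the lists of choroid plexus and ependyma (0 at an unadjusted p under 0.05 in motor and 2 in sensory cortex), striatum (2 in each) and cortical excitatory neurons (1 in motor and 0 in sensory cortex). The part of these cell types in the values of the 4 channel genes was not tested.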

How the data were processed

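The deposited values are log2 signals of 45101 probe sets on 20 arrays. Per the submitters' processing notes the tools were RMA and Partek, whose versions are not given in the sources used here. The unit log2 was read from the range of the deposited values, 3.79 to 14.98 after 64 control probe sets were left out. RMA compresses differences at low signal, and precision is set by array number, since arrays carry no read depth. Gene symbols came from the platform annotation supplied: 34945 had 1 gene symbol, 932 several and 9160 none. From these values limma 3.58.1 (R 4.3.3) was fitted to 45037 probe sets, region by region, with cohort as covariate and adjusted p under 0.05 as the threshold. Motor and sensory arrays of a mouse were paired by the animal numbers in the labels (correlation of deviations -0.06 to 0.59). For EAE and healthy mice of the same number these correlations were 0.106 to 0.341 in motor cortex, each above 0.1, and -0.283 to 0.454 in sensory cortex. Arrays were processed on 2 days, the second holding motor cortex of healthy mouse 4 and sensory cortex of healthy mouse 1. Fits were repeated without them, which also makes the healthy group smaller. No 2 arrays of a group were identical (smallest root mean square difference 0.144).

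All 11 member probe sets are reported, with up to 4 genes of the smallest p per list and region, and the 5 genes most correlated with each member; Kcnj3, Kcnj16 and Dcn were named after their values were seen. Lists used the brightest probe set of each gene, and some list genes are not reported here. The members and lists were chosen with earlier results of these data known. The fits were tested on simulated data. Alternatives were normalization, a filter at a mean log2 of 6, brightest probe sets, no cohort covariate, an intensity trend, each mouse left out, the second day left out, each cohort alone and a replicate block.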

Additional observations from a re-analysis of the deposited data

Results flagged for a closer look

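Of 44 groups of member values checked, 2 held a value far from the others, and chance flags about 1 group in 20. In sensory cortex of healthy mice, mouse 2 was the highest of 4 for Aqp4 1434449_at, at 11.5543 with the nearest at 11.2725. The sensory EAE difference of this probe set was -0.11 with all mice and -0.0373 without that mouse, the end nearest to 0 of the range of -0.18 to -0.04 that leaving out any 1 mouse gave. In sensory cortex of EAE mice, mouse 6 was the highest of 6 for Gja1 1438945_x_at, at 12.5488 with the nearest at 12.2704, and the sensory difference of this probe set was 0.29 with all mice and 0.21 without that mouse, the lower end of the range of 0.21 to 0.36 that leaving out any 1 mouse gave.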

How the results depend on the processing

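The Gjb6 difference kept its sign under every alternative run, at 0.51 to 0.62 in motor cortex, 0.59 to 0.73 in sensory cortex and 0.57 to 0.67 over both regions, and it was called in 17, 9 and 17 of 20 settings, the reported one included. Without the arrays of the second processing day (or their mice), the limma count of probe sets was 89 in motor cortex, 7 in sensory cortex (members 0), 5 over both regions (members 0), 925 between regions in EAE mice (members 0) and 74 between regions in healthy mice. Both arrays were from healthy mice, so the day cannot be told apart from the smaller healthy group. Without healthy mouse 1, 2 or 3 the motor count was 34, 90 or 102. The sensory count was 16, 6 or 6 without healthy mouse 2, 3 or 4. Within cohorts 1 and 2 it was 5 and 16 in motor cortex, 0 and 15 in sensory cortex, and 0 and 246 over both regions, with 0 members in each; fewer mice are tested there. With brightest probe sets only the sensory count was 438, and with an intensity trend 892, where 1 member was called between regions in EAE mice. The replicate number shared by an EAE and a healthy mouse joins different animals, and 2 of 4 numbers in motor and 1 of 4 in sensory cortex correlated best with their own number. A block on this number drops the cohort covariate, and EAE mice 5 and 6 have no healthy mouse of their number. With that number as a replicate block, the motor members called were 2 (Gjb6 and Aqp4 1434449_at), the sensory count was 6 with 0 members, and the count over both regions was 332. With no replicate block, between motor and sensory arrays of EAE mice, the count was 739 with 0 members.

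Leaving out 1 mouse gave counts of 34 to 347 in motor cortex (members 0 to 1), 6 to 1375 in sensory cortex (0 to 1), 310 to 2237 over both regions (1 to 2), 787 to 1770 between regions in EAE mice (0 to 2), 199 to 1203 in healthy mice, and 7 to 11 pairs. Signs turned for the uncalled differences named next, and the cause was not tested. In motor cortex Gja1 1415800_at was -0.0055 without the second day, -0.044 in cohort 1 and -0.041 with the replicate block. Gja1 1438650_x_at was -0.0065 without the second day, -0.039 in cohort 2 and -0.016 with the replicate block. Gja1 1415801_at was 0.039 without the second day and 0.0077 in cohort 2. In cohort 1, Aqp4 1425382_a_at was 8.3e-05 in sensory cortex and Gja1 1415800_at was -0.0071 over both regions. For the EAE difference between regions, Aqp4 1425382_a_at was -0.061 in cohort 1 and -0.014 with the replicate block, and Aqp4 1447745_at was 0.16 without the second day and 0.061 with the replicate block. Gja1 1415801_at was -0.078 and Gja1 1438973_x_at 0.067 in cohort 1. Between regions in healthy mice without the second day, Gja1 1415800_at was -0.013 and 1438973_x_at 0.056. The correlation with grade was -0.15 for Aqp4 in motor and -0.18 in sensory cortex over the mean of all probe sets. After quantile normalization it was -0.15 for Kcnj10 and -0.014 for Gja1 in motor cortex. Leaving out 1 mouse turned signs within these ranges. In motor cortex Gja1 1415800_at ran from -0.044 to 0.050, 1438650_x_at from -0.022 to 0.046 and 1415801_at from -0.25 to 0.039. For the EAE difference between regions, Aqp4 1425382_a_at ran from -0.094 to 0.25, Aqp4 1447745_at from -0.17 to 0.088 and Gja1 1415801_at from -0.12 to 0.16. Between regions in healthy mice, Aqp4 1447745_at ran from -0.22 to 0.037, Gja1 1437992_x_at from -0.048 to 0.063, 1415800_at from -0.0099 to 0.091, 1438945_x_at from -0.015 to 0.12 and 1438973_x_at from -0.071 to 0.057. The sensory shift of Kcnj10 against Aqp4 ran from -0.039 to 0.11.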
